A study of Nicotiana tabacum with 39 samples.

Results

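The step from 30 to 60 min of light was followed in young leaves of Nicotiana tabacum, cultivated tobacco, that were re-greening after darkness. It is covered by 6 of the 39 libraries of the study, the 3 harvested at 30 min and the 3 harvested at 60 min, chosen by their titles. All plants of these groups had been kept in extended darkness, whose length the sources used here do not give, and were then returned to light. Leaves harvested at the end of darkness (0 min, 3 libraries) had the same dark treatment, and control leaves (3 libraries) had none. Plants were nearly mature when the darkness began and had been raised on soil in days of 16 h light (350 uE/m2/s). For each library, mid-leaf sections of 3 plants, with 2 young leaves per plant, were combined, so the spread between libraries is one between pools. A pool of leaf sections mixes all cell types of the leaf, and fewer cells of a type cannot be told apart from less RNA per cell. No plants kept in darkness were harvested at 30 or 60 min, so an effect of light and one of elapsed time cannot be told apart.

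De-etiolation is the change of pale, dark-adapted tissue into green, photosynthetic tissue. Light is sensed by phytochromes, cryptochromes and phototropins. Active phytochromes lead to the loss of transcription factors called PIFs, which keep dark programmes on, while the COP1 complex stops destroying factors such as HY5 that switch on light-regulated genes. In seedlings of Arabidopsis, transcripts of regulators are known to respond early and often briefly, and those of chlorophyll synthesis and the photosynthetic apparatus follow. Which of these genes the transcripts below belong to cannot be said here, because the tables carry NCBI GI numbers only. Of the 53725 identifiers 0 matched the RefSeq table used for names, and 4 are printed as examples.

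Library totals at 30 min were 24541985, 15844109 and 24590689 counts in replicates 1 to 3, and at 60 min 30337704, 17889302 and 28062642. On the first principal component of the 9 libraries of 0, 30 and 60 min (38.8% of the variance) scores ran from -94.1 to -38.9 at 0 min, from -32.7 to 25.1 at 30 min and from 14.4 to 106.0 at 60 min. Replicate 3 had the lowest score at each of these times, and its 60 min library (14.4) lay among the 30 min libraries of replicates 1 and 2 (14.5 and 25.1). On the second component (22.5%) this library stood at 102.6, and the other 8 ran from -57.8 to 37.7. Results that rest on single libraries are therefore given with and without them.

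Between 30 and 60 min 4051 of the 42181 transcripts tested changed (9.6%, edgeR quasi-likelihood test, Benjamini-Hochberg adjusted p below 0.05). More rose than fell, with 2194 higher (5.2%) and 1857 lower (4.4%) at 60 min. The change was at least 2-fold in 796 rises (1.89%) and 632 falls (1.5%), and at least 8-fold in 47 (0.111%) and 39 (0.0925%). Median log2 changes were 0.83 among the rises (quartiles 0.62 and 1.22) and -0.78 among the falls (quartiles -1.17 and -0.56). Transcripts that rose held 5.13% of all counts at 30 min and 9.94% at 60 min, while those that fell went from 8.13% to 4.25%. In 94.4% of the rises and 93.2% of the falls the 3 libraries at 60 min did not overlap the 3 at 30 min in CPM, the count scaled to library size. Over all tested transcripts 22.9% did not overlap, with 11.6% higher and 11.3% lower. The calls were made from the same libraries, so the rare overlap among called transcripts follows from their choice and is no further evidence.

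Scaling by library size only turned the balance, to 1513 higher and 2223 lower (40.5% higher in place of 54.2%). Without replicate 2 at 30 min 2558 transcripts changed (1397 higher, 1161 lower), and without replicate 1 at 60 min the falls numbered 1153. The plot of calls under other settings gives the classes described next for each library left out.

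**Figure D1:**
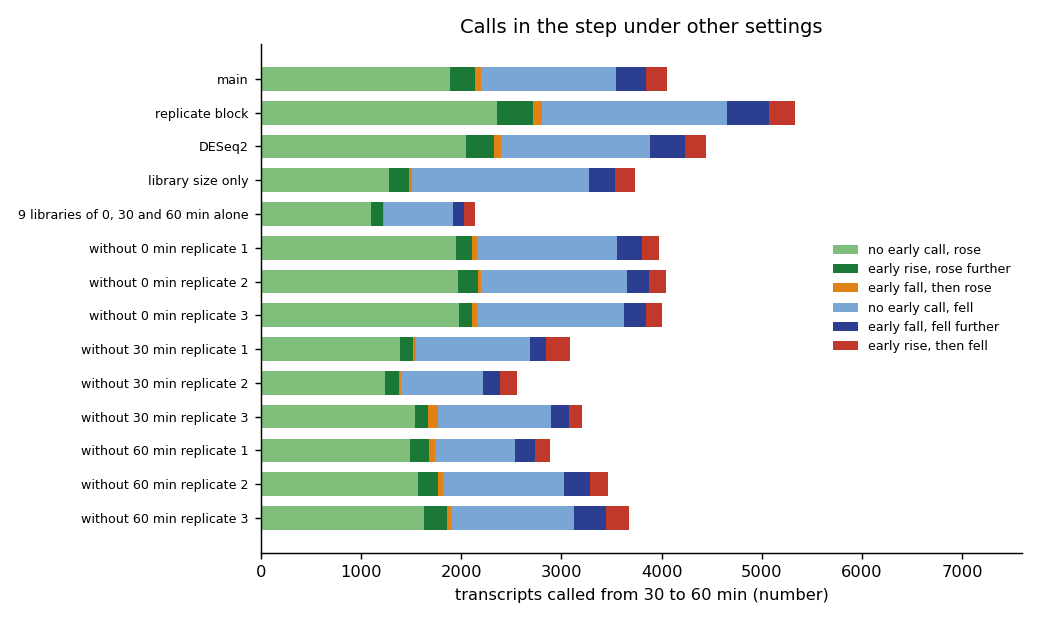
Number of transcripts called from 30 to 60 min (horizontal axis) under the main fit, 4 other settings and with each of 9 libraries left out, coloured by what the transcript had done in the first 30 min. The total is 4051 in the main fit and 2558 without replicate 2 at 30 min, and in each bar the transcripts with no early call make up most of the total.

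The step can begin, continue or reverse a change relative to the first 30 min of light, in which 2484 transcripts had changed (5.89% of those tested), with 1166 higher (2.76%) and 1318 lower (3.12%). The early balance turned with library size only (1130 higher, 904 lower), without replicate 1 at 30 min (935 and 811) and without replicate 2 at 30 min (856 and 832), and without replicate 3 at 0 min 674 were higher and 985 lower. Most changes of the step had no early call. Of the 4051 changes, 3246 (80.1%) were in transcripts with no early call, 536 (13.2%) continued an early change and 269 (6.64%) reversed one. Both comparisons share the 30 min libraries, and a chance high or low value at 30 min pushes them in opposite ways, so the counts describe these libraries and are not read as a test. Without replicate 2 at 30 min the begun changes numbered 2055. The continued ones numbered 287, 313 and 315 without replicate 1, 2 or 3 at 30 min.

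**Figure D2:**
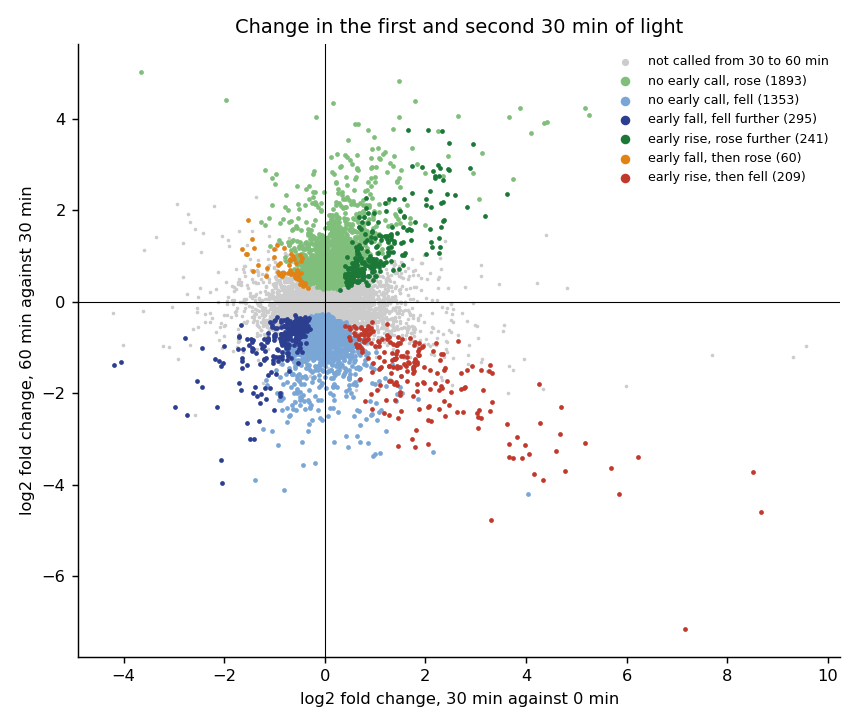
Log2 fold change of each transcript in the first 30 min of light (horizontal axis) and from 30 to 60 min (vertical axis). Coloured points are the 4051 transcripts called in the step, by class with their numbers, and grey points are transcripts called only in the first 30 min with a random sample of those called in neither. Among the coloured points, the 209 early rises that then fell reach farthest to the right and farthest down, and the 241 that rose further lie at the upper right.

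Early rises went different ways. Of the 1166, 241 (20.7%) rose further, 209 (17.9%) fell again and 716 (61.4%) were not called in the step. Among those not called, 337 were higher and 379 lower at 60 min than at 30 min, with a median step of -0.02 on the log2 scale. The 209 that fell again had a median early change of 1.63 and a median step of -1.42, and 148 of them fell at least 2-fold. Their median level went from 16.1 CPM at 30 min to 5.68 CPM at 60 min. Those that rose further had a median early change of 0.91 and a step of 0.94, and 113 of them rose at least 2-fold in the step. Without replicate 3 at 30 min 130 early rises fell again. Without replicate 1, 2 or 3 at 30 min, or replicate 3 at 0 min, 127, 136, 132 and 135 rose further.

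Early falls seldom turned round. Of the 1318, 295 (22.4%) fell further, 60 (4.55%) rose and 963 (73.1%) were not called, of which 656 were lower at 60 min than at 30 min. The 295 had a median early change of -0.68 and a step of -0.67. For the 60 that rose the medians were -0.67 and 0.64, and their number was the least stable of all. It was 96 with the replicate number as a term and 31 with library size only. It was also 34 without replicate 2 at 0 min, and 30, 22 and 97 without replicate 1, 2 or 3 at 30 min. The further falls numbered 160, 177 and 183 without replicate 1, 2 or 3 at 30 min.

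To keep the libraries that chose a set out of its measured values, sets were also chosen with 2 replicate numbers and measured in the left-out number, in 3 rotations. Such values are given as mean ± SD of the 3 rotations. Each rotation has its own set of transcripts, so the SD covers the choice of the set as well as the pools. Transcripts raised at least 2-fold in the first 30 min (257 to 493 of them) had a median step of -0.36 ± 0.30, with -0.29, -0.09 and -0.68 in replicates 1 to 3. That undid 23.9 ± 15.1% of the early rise. In each rotation the early change and the step share the left-out 30 min library, so a deviation of that pool enters both. In the left-out libraries 29.5 ± 7.89% of these transcripts were at least 2-fold lower at 60 min than at 30 min and 14.8 ± 4.20% at least 2-fold higher, against 4.55 ± 1.94% and 4.27 ± 1.19% of all transcripts. Transcripts lowered at least 2-fold early (210 to 324) went on in the same direction, with a median step of -0.39 ± 0.20. Of these, 20.6 ± 6.91% were at least 2-fold lower at 60 min and 2.81 ± 1.74% at least 2-fold higher.

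Measured in the same way, early rises that fell again (76 to 116) stood 1.67 ± 0.72 above 0 min at 30 min and 0.24 ± 0.32 above it at 60 min. Relative to control they stood at 1.76 ± 0.55 and then 0.16 ± 0.11 (0.36 with library size only). Their median step was -1.17, -1.59 and -1.87 in left-out replicates 1 to 3, and thus downward in each rotation. Relative to 0 min these 3 sets, of 116, 110 and 76 transcripts, stood at 0.94, 1.67 and 2.39 at 30 min, and at -0.02, 0.06 and 1.16 at 10 min. Because the sets differ, these values do not compare the pools over the same transcripts.

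Rises that continued (43 to 154) stood 1.17 ± 0.31 above 0 min at 30 min, 2.55 ± 0.38 at 60 min and 2.53 ± 0.48 at 120 min. At 5 and 10 min they had stood at 0.06 ± 0.04 and 0.04 ± 0.10, close to the level before light. Rises that began in the step (636 to 1287) stood at 0.24 ± 0.14 at 30 min and 1.22 ± 0.26 at 60 min, and reached 1.61 ± 0.19 at 120 min. Falls that continued (76 to 141) went from -0.92 ± 0.11 at 30 min to -1.89 ± 0.14 at 60 min and -2.24 ± 0.23 at 120 min. Falls that began (448 to 951) went from -0.19 ± 0.11 to -1.04 ± 0.21 and -1.45 ± 0.09. At the last harvest, 6720 min, these sets stood at -1.98 ± 0.17 and -1.27 ± 0.10, still below 0 min. Relative to control the continued and begun falls stood at -0.15 ± 0.17 and -0.11 ± 0.10 at 120 min. At 6720 min they stood at 0.08 ± 0.10 and 0.07 ± 0.03, and thus near the control level. Early falls that rose were too few for this measure (1 to 18).

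**Figure D3:**
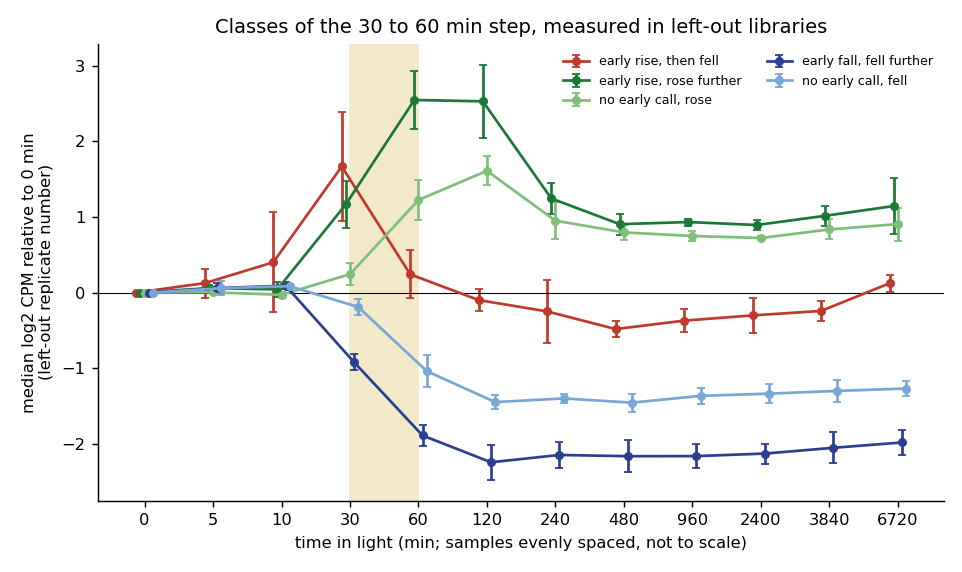
Median log2 CPM relative to 0 min (vertical axis) at each harvest (horizontal axis, evenly spaced) for 5 classes, each chosen with 2 replicate numbers and measured in the left-out one. Points and bars are the mean and SD of 3 rotations, and the shaded band is the step. Early rises that fell again go from 1.67 at 30 min to 0.24 at 60 min, and the 2 other rising classes are highest at 60 or 120 min. Both falling classes stay below their 0 min level from 30 min on.

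A change without an early call is not the same as none. Of the 1893 rises that began in the step, 1557 (82.3%) had an early log2 change within 0.5 of no change, and 67 had risen at least 2-fold without passing the test. Among the 1353 falls that began, 1162 (85.9%) had stayed within 0.5 early, and 5 had fallen at least 2-fold. Medians of the early change were 0.14 and -0.08. The unadjusted early p was below 0.05 in 408 of the begun rises and 331 of the begun falls (edgeR). A call in the step without an early call is not a test of a difference between both changes. Of all transcripts tested, 819 passed that direct test, given below. Most of the 3246 begun changes were thus not shown to differ from their early change. Without replicate 2 at 30 min 1239 rises and 816 falls began in the step, and without replicate 1 at 60 min 804 falls did.

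Single transcripts show each course. Transcript 698479310 was the largest rise without an early call among those with at least 10 CPM at the higher time and no overlap between replicates. It stood at 0.148, 0.242 and 1.90 CPM at 30 min in replicates 1 to 3 and at 20.7, 4.67 and 20.7 CPM at 60 min. All 3 libraries at 60 min were above all 3 at 30 min, and replicate 2 was the lowest of the later ones. The log2 change was 4.24 (SE 0.86, adjusted p = 0.00103, edgeR). At 0 min it had 0, 1 and 2 counts, so it was close to undetected before the light. The 30 min libraries with 4, 4 and 52 counts were already above these. Its early log2 change was 3.88 (SE 1.72) and did not pass the test (adjusted p = 0.211, edgeR). The step was not shown to differ from that early change (difference 0.36, SE 4.54, adjusted p = 0.994, edgeR). The transcript was highest at 120 min (23.8 ± 11.2 CPM) and down to 0.501 ± 0.101 CPM at 960 min (SD, n = 3). Without replicate 1 of all groups the call was lost (log2 3.45, SE 0.97, adjusted p = 0.0580, edgeR).

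Transcript 698508053 was the largest continued rise. Its 3 libraries held 0.665, 0.467 and 0.870 CPM at 0 min, 1.11, 1.58 and 3.68 CPM at 30 min and 37.5, 20.6 and 29.9 CPM at 60 min. The groups of the 3 times did not overlap. The early log2 change was 1.66 (SE 0.39, adjusted p = 0.00662, edgeR) and the step 3.76 (SE 0.32, adjusted p = 9.57e-10, edgeR). The larger size of the step than of the early rise did not pass the test (difference 2.10, SE 0.62, adjusted p = 0.0786, edgeR). At 240 min it stood at 8.14 ± 0.79 CPM and at 6720 min at 2.88 ± 1.03 CPM, both above the 0.305 ± 0.083 CPM of control leaves in every library.

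Transcript 698556681 was the largest reversal. From 8.83, 6.43 and 6.78 CPM at 0 min it went to 37.1, 68.9 and 112.4 CPM at 30 min and to 1.89, 1.56 and 4.37 CPM at 60 min. Each library at 60 min was below each at 0 min as well. The early log2 change was 3.31 (SE 0.40, adjusted p = 1.19e-06, edgeR), the step -4.77 (SE 0.43, adjusted p = 3.30e-09, edgeR) and the difference between both steps -8.08 (SE 0.63, adjusted p = 1.23e-09, edgeR). At 10 min replicate 3 held 21.3 CPM, and replicates 1 and 2 held 10.5 and 6.73 CPM. In control leaves the transcript held 1.55 ± 0.11 CPM, against 7.34 ± 1.30 CPM at 0 min. That difference had a log2 size of 2.24 (SE 0.43, adjusted p = 7.68e-05, edgeR), and the 60 min mean was 2.60 ± 1.54 CPM.

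Transcript 698560578 was the largest fall without an early call. It held 58.6, 92.1 and 66.1 CPM at 0 min and 36.6, 42.8 and 44.8 CPM at 30 min. The early log2 change of -0.80 (SE 0.49) did not pass the test (adjusted p = 0.396, edgeR), although the groups did not overlap. By 60 min the libraries were at 1.10, 3.06 and 3.18 CPM, a log2 change of -4.11 (SE 0.58, adjusted p = 1.01e-05, edgeR). Its fall was steeper in the second 30 min than in the first (difference -3.31, SE 0.85, adjusted p = 0.0305, edgeR). Control leaves held 2.07 ± 0.38 CPM, so the transcript stood higher at 0 min than in control (log2 5.11, SE 0.60, adjusted p = 3.49e-08, edgeR). At 60 min it stood at 2.44 ± 1.17 CPM.

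**Figure D4:**
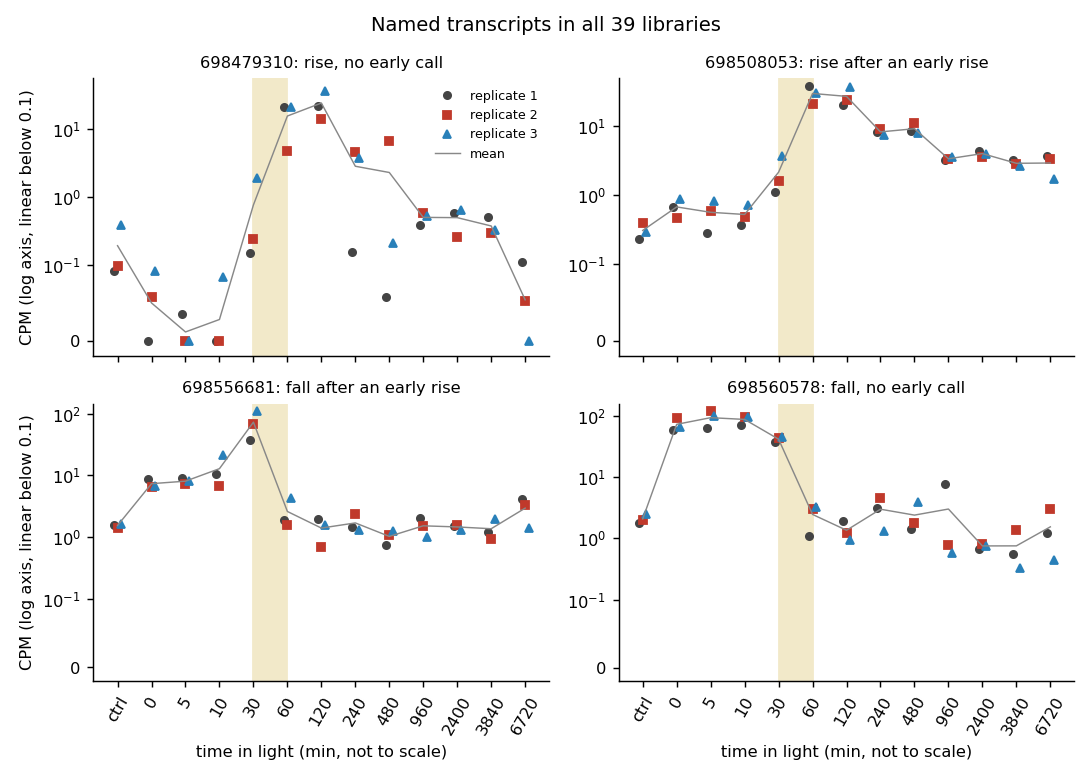
CPM of the 4 named transcripts (vertical axis, logarithmic, linear below 0.1) in all 39 libraries, from control leaves through the light times (horizontal axis, evenly spaced). Symbols are single libraries by replicate number, the line is the mean of 3, and the shaded band is the step. Transcript 698556681 peaks at 30 min with 37.1 to 112.4 CPM, while 698479310 and 698508053 are at their highest at 60 to 120 min.

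The 10 largest rises and the 10 largest falls under the same rule differed in class. Of the rises, 7 had no early call and 3 continued, and their log2 changes ran from 3.73 to 4.24. Without passing the early test, the 7 had early log2 changes of 3.88, 2.65, 3.65, 0.66, 1.35, 0.87 and 2.24. The class therefore does not say that these rises started after 30 min. The 10 rises stood at 0.763 to 4.97 CPM at 30 min and at 11.8 to 85.9 CPM at 60 min. The 3 continued rises are neighbours in the deposited list with nearly the same values (log2 3.73 to 3.76), and 2 of the begun rises are neighbours as well. Of the falls, 6 reversed an early rise, 3 began in the step and 1 continued, with log2 changes from -4.77 to -3.14. They ranged from 14.7 to 970.7 CPM at 30 min and from 1.30 to 82.5 CPM at 60 min. In all 20, each of the 3 same-numbered pairs of libraries changed at least 2-fold in the direction of the call. This held for 498 rises and 424 falls among all tested transcripts, of which 467 and 370 were called. The 20 were chosen in these same libraries for large changes without overlap, so the agreement of their pairs is no further evidence.

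Because both intervals last 30 min, the change in the second can be tested against that in the first. The 2 changes differed in 819 transcripts (1.94% of those tested, edgeR, adjusted p below 0.05). In 514 (1.22%) the second was the more negative one, with a median early change of 1.20 and a median step of -1.08, and 471 of these had been higher at 30 min than at 0 min and came down. In 305 (0.723%) the second was the more positive one, with medians of -0.49 and 0.69, and 231 of these had been lower at 30 min and came up. The other 43 and 74 kept their direction and changed in size. The 30 min libraries enter both changes with opposite sign, so a chance high or low value there favours a call and opposite directions. The numbers with opposite directions therefore follow in part from the choice of transcripts and are not read as a further test. Without replicate 2 at 30 min 470 transcripts differed.

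The step was also set against what darkness had done. The comparison of 0 min with control shares no library with that of 60 and 30 min, so a chance value in one does not enter the other. At what clock time the controls were harvested is not stated, and an effect of clock time cannot be told apart from the dark change. Of the 5208 transcripts that stood at least 2-fold higher at the end of darkness than in control (12.3% of those tested), 985 (18.9%) fell in the step, against 4.4% of all transcripts, and 31 (0.595%) rose, against 5.2%. Of the 4821 that stood at least 2-fold lower (11.4%), 753 (15.6%) rose and 23 (0.477%) fell. With the replicate number as a term the small counts were 51 and 40. With library size only the raised and lowered sets held 7670 and 3155 transcripts, of which 1418 (18.5%) fell and 457 (14.5%) rose. Seen from the step in the main fit, 53.0% of its falls had stood at least 2-fold higher at 0 min than in control. Of its rises, 34.3% had stood at least 2-fold lower.

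Most of these transcripts were not called in the step, and their shifts were modest. For the dark-raised ones, those at least 2-fold higher at 0 min than in control, 87.3% were lower at 60 min than at 30 min. Their median step was -0.35 (quartiles -0.60 and -0.15), and -0.33, -0.34 and -0.43 in the same-numbered pairs 1 to 3. For dark-lowered transcripts the median was 0.30 (quartiles 0.06 and 0.62), with 0.22, 0.32 and 0.34 in the pairs. All 3 pairs moved the same way in both sets, and the median over all transcripts was -0.004. The step grew with the dark change. Among transcripts raised by more than 3 on the log2 scale (344) the median step was -0.93 and 35.8% fell, and among those raised by 1 to 2 (4554) it was -0.31 and 14.4%. At the other end, among transcripts lowered by more than 3 (271) the median step was 0.81 and 18.8% rose.

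**Figure D5:**
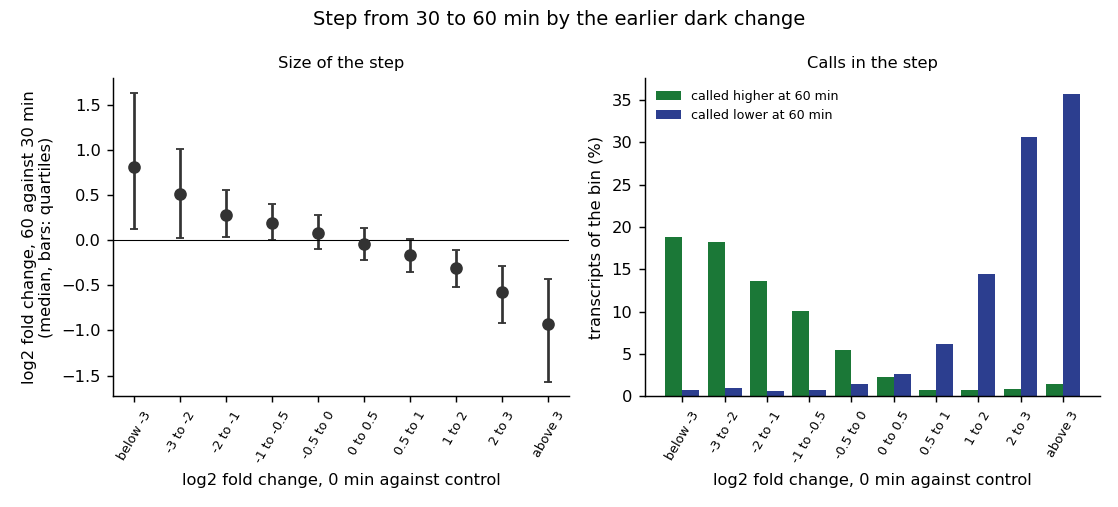
Step from 30 to 60 min for transcripts binned by their log2 change from control to the end of darkness (horizontal axis). The left panel shows the median log2 step with quartiles as bars, and the right panel the percentage of each bin called higher or lower at 60 min. The median step runs from 0.81 in the most lowered bin to -0.93 in the most raised bin.

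The classes differed in their change from control to 0 min. These values share the 0 min libraries with the early calls and are given side by side. Median log2 changes from control to 0 min were 1.56 for falls that continued and 1.05 for falls that began, and -0.90 and -0.72 for rises that continued or began. Early rises that fell again had a median of -0.02, close to the 0.03 of all transcripts. In left-out libraries the falls that began stood 1.34 ± 0.03 above control at 0 min, 1.17 ± 0.09 at 30 min and 0.29 ± 0.15 at 60 min (0.46 with library size only). The rises that began stood at -0.83 ± 0.08, -0.56 ± 0.10 and 0.45 ± 0.23, and at 0.76 ± 0.13 at 120 min. With library size only the values at 60 and 120 min were 0.72 and 1.07, and under both scalings the median crossed the control level within the step. Continued rises stood 1.60 ± 0.44 above control at 60 min and 0.16 ± 0.13 at 240 min (0.38 with library size only).

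What followed was read between 120 and 240 min, in libraries that took no part in the step. Of the 2194 rises, 978 (44.6%) fell between these times, against 8.95% of all transcripts, and 82 (3.74%) rose, against 7.49%. The share that fell was 68.9% (166 of 241) for continued rises and 41.6% (788 of 1893) for those that began. All 10 of the largest rises were lower at 240 min than at 120 min. The median change of the step's rises from 120 to 240 min was -0.47, with -0.69, -0.37 and -0.39 in the same-numbered pairs. Among the 1857 falls the shares were near those of all transcripts, with 189 (10.2%) rising and 150 (8.08%) falling, and a median of 0.0008. Early rises that had fallen again showed 6.70% rising and 8.61% falling.

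Calls in the step came in groups along the deposited list. Of the rises, 39.9% lay in runs of at least 2 neighbouring tested identifiers that both rose, and of the falls 42.3%. The longest run held 9 identifiers in each direction. The identifier after a risen one had also risen in 23.6% of cases, against 5.2% of all transcripts, and after a fallen one 26.4% had fallen, against 4.4%. Counting each run once leaves 1676 rises and 1367 falls. Tobacco is an allotetraploid with near-identical gene copies, and the sources used here do not say how reads shared between copies or variants were counted.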

How the data were processed

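Each table holds raw whole-number counts per transcript as deposited by the authors, with no normalization in the values. PolyA RNA was sequenced as single reads of 100 bp, per the labels' protocols. Per the submitters' processing notes, the tools included FastQC 0.10.1, BWA 0.70 and SAMtools 1.0, with no role stated. The sources used here give neither the reference sequences nor the counting tool nor the strand setting.

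In R 4.3.3, edgeR 4.0.16 was used with filterByExpr (minimum count 10, minimum total 15), which left 42181 transcripts with 99.9% of all counts, and TMM scaling. All 39 libraries entered 1 quasi-likelihood fit with 13 group means. P-values were adjusted over all tested transcripts by the Benjamini-Hochberg method. SE is the log2 change divided by the square root of F, and thus restates the test. Log2 CPM used a prior count of 1. On counts simulated for 60 min minus 30 min (42030 transcripts), 53 of 100 changes of 1 on the log2 scale and 91 of 100 of size 2 were recovered, and 12 unchanged transcripts were called. DESeq2 1.42.0 was an alternative.

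Deviations from the group means correlated between same-numbered libraries of 30 and 60 min at 0.38, 0.40 and 0.70. Libraries of these times with different numbers gave -0.49 to 0.16. Between 0 and 30 min the same-numbered values were 0.04, 0.35 and 0.41, and the others ran from -0.42 to 0.16. The number thus goes with shared deviations at 30 and 60 min, but the main fit holds no term for it. Counts from a fit with that term are given below as the replicate block. The labels do not say what a number stands for. Libraries of a group differed by more than counting noise. Transcripts printed by identifier are the largest begun and continued rise, the largest reversal of an early rise and the largest begun fall, with adjusted p below 0.05, at least 10 CPM at the higher time and no overlap. The comparisons, sets and rules were chosen with earlier results of these data known. Lists of photosynthesis, light signalling, clock and starvation genes were not tested, because no identifier could be named.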

Additional observations from a re-analysis of the deposited data

Results flagged for a closer look

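In 819 transcripts the change of the second 30 min of light differed from that of the first, tested as the direct contrast of both changes (edgeR). They are listed because the effects of 2 intervals of equal length differed. The contrast counts the 30 min libraries in both changes.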

How the results depend on the processing

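With the 9 libraries of 0, 30 and 60 min fitted alone, 2135 transcripts changed in the step, of which 1786 began, 224 continued and 125 reversed, and 291 differed between both 30 min intervals. This fit has fewer samples behind its spread. Leaving out 1 library of 0, 30 or 60 min gave 2558 to 4042 changed transcripts, 2055 to 3439 begun, 287 to 548 continued, 190 to 278 reversed and 470 to 818 that differed between intervals. Without replicate 1, 2 or 3 of all groups, which leaves 2 libraries per group, the counts were 1579, 2663 and 1281 changed, 1306, 2239 and 1084 begun, 144, 295 and 120 continued, 129, 129 and 77 reversed, and 353, 413 and 168 differing. Of the 1281 changed without replicate 3, 1267 were among the 4051. The replicate block gave 5333 changed, 4198 begun, 779 continued, 356 reversed and 1180 differing transcripts, with 4050 of the 4051 main calls kept. DESeq2, RLE factors, library size only and both other filters gave totals within 1.5 times of the main ones for these 5 counts. The held-out median steps of transcripts raised or lowered at least 2-fold early or in the step, and the median steps of the dark sets, kept their sign and moved by less than 1 SD with library size only and, for the held-out ones, with a prior count of 5. Held-out levels at single times moved by more than 1 SD in places with library size only, such as falls that began at 0 min relative to control (1.34 ± 0.03 to 1.57) and at 6720 min relative to 0 min (-1.27 ± 0.10 to -1.50), and continued falls at 60 min relative to 0 min (-1.89 ± 0.14 to -2.07). The dark medians were -0.36 and 0.30 with the replicate block, chosen after seeing the data. The 4 named transcripts kept their direction under all 19 alternatives and their call in all but the 1 given above.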

Other observations

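Calls in the step were more frequent among abundant transcripts. Below a mean of 1 CPM 3.41% of transcripts changed, from 1 to 10 CPM 7.85%, from 10 to 100 CPM 14.8% and above 100 CPM 13.8%. Falls made up 56.3% of the calls in the lowest class and 36.4% in the highest. Among the 50 most abundant transcripts at 30 and 60 min, which held 11.6% of all counts, 3 were called, all of them higher, and 2 of these at least 2-fold.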
